A study of Homo sapiens with 14 samples.

Results

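The 9 genes TH, DDC, SLC18A2, SLC6A3, SLC10A4, DRD2, KCNJ6, PITX3 and BNC2 carry the making, storage, reuptake and sensing of dopamine or mark the neurons that use it. They were picked out by gene symbol, and each had exactly 1 entry among the 57445 gene entries of the stem cell and day 11 tables and 1 among the 57820 entries of the later tables. Expression was measured by RNA sequencing of total RNA from H9 (WA-09), an established human embryonic stem cell line, and from cultures directed from it toward midbrain dopamine neurons. There were 14 libraries, 2 in each of 7 groups. The first group was undifferentiated cells, called hPSC. The next 4 were day 11 cultures that had received the GSK3 inhibitor CHIR99021 (CHIR), which activates WNT signalling, at 0.7, 3, 5 or 7.5 µM from day 4. The last groups were cultures of the 7.5 µM arm labelled day 16 and day 30. Per the labels' protocols, every differentiating culture began with the Sonic hedgehog protein SHH C25II, the inhibitors LDN and SB431542, a ROCK inhibitor and 0.7 µM CHIR, and SHH, LDN and SB431542 were withdrawn at day 7. At day 10 all arms moved to a medium with BDNF, GDNF, ascorbic acid, TGFβ3, dibutyryl cAMP and 3 µM CHIR, and DAPT was added at the day 11 replating, so the day 11 arms shared their CHIR concentration for the last day. The end of the boost is recorded as day 9 in the series text and day 10 in the protocol, and the day 16 group of the labels appears as day 20 in that text. All libraries come from 1 cell line. The replicates of a group carry different codes in the labels, but nothing says outright that they were separate cultures. The p-values below therefore rest on the spread among these libraries alone, and how much of it is technical is not known.

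A dopamine neuron makes its transmitter in 2 steps. Tyrosine hydroxylase (TH) turns tyrosine into L-DOPA with tetrahydrobiopterin as cofactor, and this step limits the rate, and the decarboxylase DDC then turns L-DOPA into dopamine. DDC also serves serotonin neurons and is made in cells that use no monoamine, so it marks the lineage less closely than TH. The vesicular transporter SLC18A2 (VMAT2) loads dopamine into vesicles, the plasma membrane transporter SLC6A3 (DAT) takes it back up, and DRD2 is the receptor by which dopamine neurons sense their own release. PITX3 is a homeodomain factor of differentiating midbrain dopamine neurons, and KCNJ6 (GIRK2) is a potassium channel gated by receptors such as DRD2. SLC10A4 is a synaptic vesicle protein of monoamine and acetylcholine neurons. BNC2 encodes the zinc finger protein basonuclin 2, which is also known from skin, bone and fibroblasts.

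The 250 bases before an annotated start were read from RefSeq for 6 of the 9 genes (7 windows, GRCh38.p14), without use of the deposited values, which are per gene. They were searched on both strands for the cAMP response element TGACGTCA, the NR4A site AAGGTCA, the TCF/LEF site CTTTGAT, the PITX site TAATCC and the FOXA site TGTTTAC. These letters stand in 1.65%, 3.44%, 2.26%, 5.62% and 2.98% of all 35116 windows, and 2 of the 7 windows held a match. The windows of the 3 most abundant genes are shown, with matches in capitals, because the measured differences below are mostly theirs.
SLC18A2, chr10:117240864-117241113, plus strand: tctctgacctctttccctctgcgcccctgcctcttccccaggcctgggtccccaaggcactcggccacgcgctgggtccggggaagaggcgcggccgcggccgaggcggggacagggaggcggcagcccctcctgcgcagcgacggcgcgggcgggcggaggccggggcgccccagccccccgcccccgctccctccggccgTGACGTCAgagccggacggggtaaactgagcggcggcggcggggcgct
DDC, upstream start, chr7:50565406-50565655, minus strand: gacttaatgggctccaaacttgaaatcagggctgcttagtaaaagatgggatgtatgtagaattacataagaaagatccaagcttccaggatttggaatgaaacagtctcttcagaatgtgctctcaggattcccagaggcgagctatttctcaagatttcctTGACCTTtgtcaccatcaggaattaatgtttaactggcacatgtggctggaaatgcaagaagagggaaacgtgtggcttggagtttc
DDC, downstream start, chr7:50561072-50561321, minus strand: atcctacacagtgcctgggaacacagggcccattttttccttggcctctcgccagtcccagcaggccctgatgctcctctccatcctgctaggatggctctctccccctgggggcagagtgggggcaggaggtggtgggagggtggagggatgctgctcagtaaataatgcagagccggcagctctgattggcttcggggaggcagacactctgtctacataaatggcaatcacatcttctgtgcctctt
BNC2, chr9:16870671-16870920, minus strand: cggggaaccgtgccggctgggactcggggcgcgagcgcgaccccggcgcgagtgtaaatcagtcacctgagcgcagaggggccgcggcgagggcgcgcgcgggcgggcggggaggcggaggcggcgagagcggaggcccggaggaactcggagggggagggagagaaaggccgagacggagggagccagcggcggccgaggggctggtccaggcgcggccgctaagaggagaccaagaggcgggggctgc
The capitals in SLC18A2 are the palindromic cAMP response element, whose first base lies 48 bases before the start. Those in the upstream DDC window are the NR4A site on the opposite strand, whose first base lies 87 bases before the start. The other DDC window and the windows of BNC2, SLC10A4, PITX3 and KCNJ6 held none of the 5 motifs. GC made up 78.8% of the SLC18A2 window, 76.8% of the BNC2 window and 42.4% and 58.0% of the upstream and downstream DDC windows, beside a median of 58.0% over all windows. A match is a description of the letters and not of a bound factor.

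Each hPSC or day 11 library held 20.52 to 44.76 M gene counts and each later library 5.41 to 6.34 M, and levels are given as CPM, the count in a library of 1 M counts, after TMM scaling over the 10 hPSC and day 11 libraries. A count of 3 was worth 0.0668 to 0.173 CPM there, and intervals and floors cover counting error only. Defining genes followed the labels: the pluripotency factor POU5F1 stood at 412 and 474 CPM in hPSC and at 0.327 to 1.73 CPM at day 11, while the floor plate factor FOXA2 went from 0.496 and 0.109 CPM to 52.9 to 215 CPM. The floor plate factor LMX1A rose likewise, from 0.0276 and 0.181 CPM to 28.6 to 104 CPM. All 4 day 11 replicate 1 libraries share 1 code in the labels and all 4 replicate 2 libraries share another. Their deviations from the group means correlated at 0.64 to 0.86 across genes, so day 11 results are also given blocked by replicate number. The day 16 and day 30 tables differ in kind, as described with their values below, and were set against nothing else.

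At day 11 the cultures held abundant DDC RNA and almost none of TH, the gene that precedes it in the pathway. DDC was counted 3 and 4 times in the hPSC libraries (0.0827 and 0.145 CPM). At day 11 its level was 41.0 and 17.3 CPM with 0.7 µM CHIR, 51.6 and 19.8 CPM with 3 µM, 57.8 and 22.3 CPM with 5 µM, and 39.2 and 41.8 CPM with 7.5 µM, replicate 1 first. Every day 11 library lay far above both hPSC libraries, and the groups did not overlap. Here and for the genes below, the share of all genes without such overlap was not counted. The summed counts differed 303-fold (95% interval from the counts 147 to 754), and the mean of the 4 day 11 arms exceeded hPSC by 8.29 ± 0.91 (SE) on the log2 scale (adjusted p = 8.54e-04, edgeR quasi-likelihood test, higher in 8 of 8 libraries). With the block the difference was 8.22 ± 0.52 (adjusted p = 1.41e-07).

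TH was counted 9 times and 1 time in the hPSC libraries, once and 0 times at 0.7 µM, 0 times and 2 times at 3 µM, once and 7 times at 5 µM, and 3 and 5 times at 7.5 µM. The highest level was 0.248 CPM, in hPSC replicate 1, and day 11 libraries reached at most 0.194 CPM. TH did not pass the filter on low counts and was not tested. The summed counts, scaled by library size, gave a ratio of day 11 to hPSC of 0.505 (95% interval 0.224 to 1.22) and of 7.5 to 0.7 µM of 7.09 (0.95 to 315), the latter from 8 counts against 1. Both intervals include 1, so no difference in TH was detected from these few counts. Per kilobase of annotated exon, DDC stood at 12.9 ± 0.578 CPM at 7.5 µM CHIR and TH at 0.0336 ± 0.0118 CPM (SD, n = 2).

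The genes that make and recycle the cofactor of TH were present throughout. Of the 7 in the list fixed for them, all were tested against hPSC, without the block 0 were higher and 2 were lower, with a median difference of −0.66 on the log2 scale beside 0.04 over all genes tested. GCH1, the first enzyme of tetrahydrobiopterin synthesis, fell from 16.2 and 17.1 CPM in hPSC to 2.25 to 6.12 CPM at day 11, by 1.93 ± 0.29 (SE) on the log2 scale (adjusted p = 0.00276). The dehydratase PCBD2 fell by 1.12 ± 0.25 (adjusted p = 0.0163). Without hPSC replicate 2, GCH1 missed the threshold (adjusted p = 0.0561), and PCBD2 missed it without either hPSC library (0.152 and 0.183) and with all genes kept (0.0613). With the block 2 of the 7 cofactor genes were higher and 3 lower. Among the 6 enzymes of dopamine breakdown 0 rose and 2 fell without the block, and 2 were higher and 2 lower with it. Those that fell without it were the monoamine oxidase MAOB by 3.52 ± 0.57 (adjusted p = 0.00422) and the aldehyde dehydrogenase ALDH1A1, which also makes retinoic acid, by 5.13 ± 0.67 (adjusted p = 0.00169), on the log2 scale. The median of this list was 0.12. Over all 19672 genes tested, 7.85% passed as higher and 13.3% as lower without the block, and 54.6% passed with it.

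**Figure D1:**
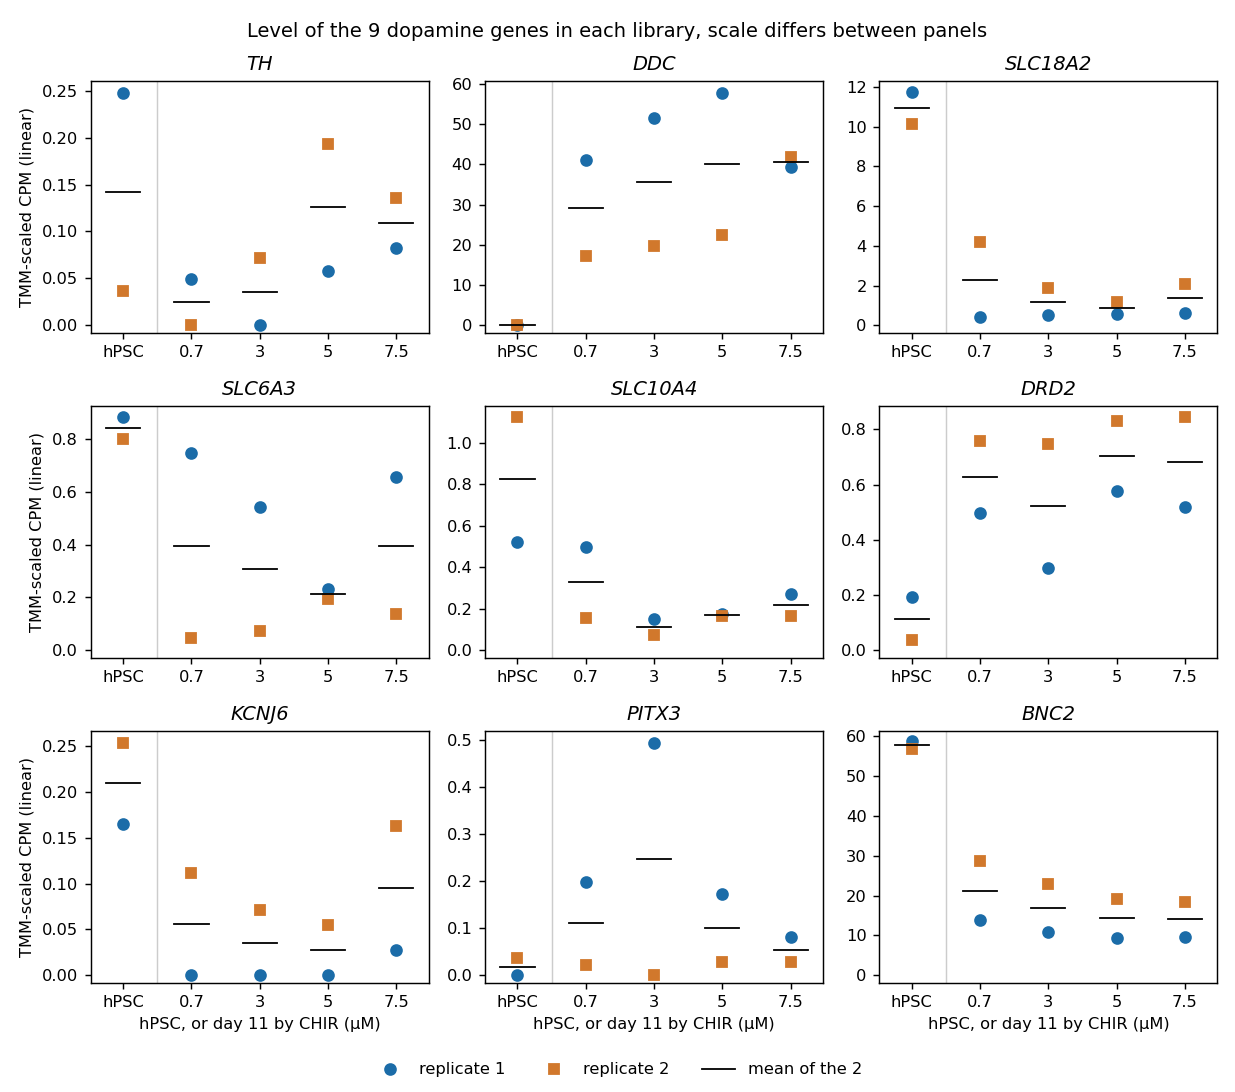
Level of each of the 9 genes (y, TMM-scaled CPM on a linear axis whose scale differs between panels) in hPSC and in the 4 day 11 groups by CHIR concentration (x). Points are libraries and short lines the mean of the 2 in a group. DDC is near 0 in hPSC and between 17.3 and 57.8 CPM at day 11, SLC18A2 and BNC2 are highest in hPSC, and TH, KCNJ6 and PITX3 stay below 0.5 CPM in every library.

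Of the genes for storing and retrieving dopamine, the vesicular genes SLC18A2 and SLC10A4 were lower at day 11 than in the stem cells, and SLC6A3 did not pass without the block. SLC18A2 stood at 11.7 and 10.1 CPM in hPSC. At day 11 it was 0.398 and 4.19 CPM with 0.7 µM CHIR, 0.494 and 1.89 CPM with 3 µM, 0.578 and 1.16 CPM with 5 µM, and 0.601 and 2.10 CPM with 7.5 µM. Every day 11 library lay below both hPSC libraries, and replicate 2 was the higher in all 4 arms. The mean of the arms fell by 3.01 ± 0.72 (SE) on the log2 scale (adjusted p = 0.022), or by 3.36 ± 0.30 with the block (adjusted p = 2.30e-06). The call was lost without hPSC replicate 1 (adjusted p = 0.142), without hPSC replicate 2 (0.134) and without 7.5 µM replicate 1 (0.0509).

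SLC18A2 shares 2157 exon bases with PDZD8 on the opposite strand, and how the counting treated strand is not given in the sources used here. PDZD8, which tethers organelle membranes, was also highest in hPSC, at 63.4 and 60.8 CPM. In every day 11 arm its replicate 2 exceeded replicate 1 (37.6 to 55.0 CPM and 15.6 to 37.0 CPM). Across the concentrations the 2 genes differed: within replicate 2, PDZD8 was lowest at 0.7 µM (37.6 CPM), where SLC18A2 was highest (4.19 CPM). The part of PDZD8 in the SLC18A2 values was not tested. Genes annotated as antisense took 0.26% to 0.36% of the gene counts in these 10 libraries.

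SLC6A3 was sparse. It stood at 0.882 and 0.797 CPM in hPSC (32 and 22 counts), and at day 11 at 0.746 and 0.0446 CPM with 0.7 µM CHIR, 0.543 and 0.0712 CPM with 3 µM, 0.231 and 0.194 CPM with 5 µM, and 0.655 and 0.136 CPM with 7.5 µM. The 4 replicate 2 libraries held 2 to 7 counts each. The day 11 mean differed from hPSC by −1.43 ± 0.92 (SE) on the log2 scale, which did not pass (adjusted p = 0.308, 95% interval −3.57 to 0.70). With the block the difference was −1.76 ± 0.49 and passed (adjusted p = 0.00891).

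SLC10A4 had 0.524 and 1.12 CPM in hPSC (19 and 31 counts). At day 11 the values were 0.497 and 0.156 CPM with 0.7 µM CHIR, 0.148 and 0.0712 CPM with 3 µM, 0.173 and 0.166 CPM with 5 µM, and 0.273 and 0.163 CPM with 7.5 µM, from 2 to 10 counts each. All 8 lay below the lower hPSC library, by little in 0.7 µM replicate 1. The fall of 2.10 ± 0.55 (SE) on the log2 scale passed (adjusted p = 0.0294), as did that of 2.13 ± 0.45 with the block (adjusted p = 0.00183). Without the block, leaving out either hPSC library, 3 µM replicate 2, or any of the 4 libraries at 5 and 7.5 µM ended the call, with adjusted p from 0.0525 to 0.382.

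The receptor gene DRD2 had higher values at day 11 in every library than in hPSC. It was counted 7 times and 1 time in hPSC (0.193 and 0.0362 CPM), and its day 11 levels were 0.497 and 0.757 CPM with 0.7 µM CHIR, 0.296 and 0.748 CPM with 3 µM, 0.578 and 0.830 CPM with 5 µM, and 0.519 and 0.844 CPM with 7.5 µM. All 8 day 11 libraries lay above both hPSC libraries, at 6 to 34 counts each. The difference of 2.38 ± 0.74 (SE) on the log2 scale missed the threshold (adjusted p = 0.0575), and that of 2.28 ± 0.58 with the block passed (adjusted p = 0.00557), as it did in DESeq2 (adjusted p = 0.0124). The summed counts gave a ratio of 5.35 (95% interval 2.65 to 12.6). Of the 4 other dopamine receptor genes 1, DRD4, could be tested, and its difference of 2.96 ± 1.52 on the log2 scale did not pass (adjusted p = 0.206), while that of 2.51 ± 0.85 with the block did (adjusted p = 0.0254).

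KCNJ6 was at the detection limit, with 6 and 7 counts in hPSC and 0 to 6 counts in each day 11 library, 0 of them in replicate 1 at 0.7, 3 and 5 µM. Its highest level was 0.254 CPM, in hPSC replicate 2, and it was not tested. The ratio of summed counts of day 11 to hPSC was 0.327 (95% interval 0.148 to 0.74).

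Of the 2 transcription factors, PITX3 was nearly absent and BNC2 abundant. PITX3 had 0 and 1 counts in hPSC and 0 to 10 counts in each day 11 library. The 4 replicate 1 libraries at day 11 reached 0.0819 to 0.494 CPM and the 4 replicate 2 libraries 0 to 0.0277 CPM. Its ratio of summed counts of day 11 to hPSC, 23 against 1, was 6.12 (95% interval 0.993 to 252), and it was not tested.

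BNC2 stood at 58.8 and 56.8 CPM in hPSC. Its day 11 levels were 13.8 and 28.7 CPM with 0.7 µM CHIR, 11.0 and 22.9 CPM with 3 µM, 9.42 and 19.1 CPM with 5 µM, and 9.69 and 18.5 CPM with 7.5 µM. The hPSC and day 11 values did not overlap, and replicate 2 was 1.91 to 2.08 times replicate 1 in every arm. The day 11 mean fell by 1.82 ± 0.41 (SE) on the log2 scale (adjusted p = 0.0168), or by 1.91 ± 0.15 with the block (adjusted p = 9.07e-07). Without hPSC replicate 1 or 2 the fit without the block no longer called it (adjusted p = 0.13 and 0.145).

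In all, 6 of the 9 genes had enough counts to be tested against hPSC, and without the block 1 was higher, 3 were lower and 2 did not pass. Over the 19672 genes tested, 21.1% passed, 7.85% as higher and 13.3% as lower. With the block 2 of the 6 were higher and 4 lower, where 54.6% of all genes passed. The 3 genes left out by the filter were the low ones, so these counts do not describe all 9. In bulk RNA fewer cells that express a gene and less RNA per cell cannot be told apart. Per kilobase of annotated exon, BNC2 (3.77 ± 0.0927 CPM, SD, n = 2) and SLC18A2 (2.64 ± 0.272 CPM) led in hPSC and differed by more than their spread, whereas DDC led at every day 11 concentration.

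**Figure D2:**
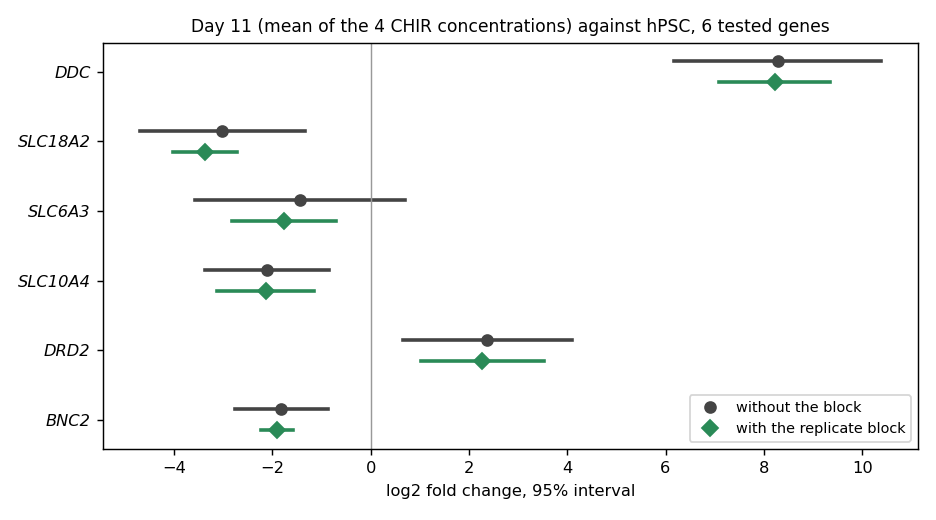
Log2 fold change of day 11 (mean of the 4 CHIR concentrations) against hPSC (x) for the 6 genes tested (y), as estimate and unadjusted 95% interval, without the block (circles) and blocked by replicate number within day 11 (diamonds). DDC lies at 8.29 and 8.22, and the interval of SLC6A3 spans 0 without the block.

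The dose of CHIR was the study's own variable at day 11, and none of the dopamine genes passed a test for it in the fits with all libraries. The 5 genes with enough counts were DDC, SLC18A2, SLC6A3, DRD2 and BNC2, and 0 of 5 passed at 3, 5 or 7.5 µM against 0.7 µM or in the slope over log2 concentration, in edgeR or DESeq2, with or without the block. Unadjusted, 0 of 5 had a p under 0.05 in the unblocked fit and BNC2 alone in the blocked fit, at 5 µM, at 7.5 µM and in the slope. Over the 18709 genes tested, edgeR without the block called 0% at each concentration (276, 567 and 1641 genes at an unadjusted p under 0.05, and 17, 129 and 657 called by DESeq2) and 0.134% in the slope. With the block it called 0.0214% at 3 µM, 1.13% at 5 µM, 10.5% at 7.5 µM and 1.19% in the slope.

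DDC had group means of 29.2 ± 16.8, 35.7 ± 22.5, 40.1 ± 25.1 and 40.5 ± 1.81 CPM (SD, n = 2) from 0.7 to 7.5 µM, and no neighbours in that order differed beyond their spread. That spread includes the offset between the replicates. Both rose from 0.7 to 5 µM: 41.0, 51.6 and 57.8 CPM in replicate 1 and 17.3, 19.8 and 22.3 CPM in replicate 2. They parted at 7.5 µM, where replicate 1 fell to 39.2 CPM and replicate 2 rose to 41.8 CPM. With the block, 7.5 µM against 0.7 µM gave 0.70 ± 0.36 (SE) on the log2 scale (adjusted p = 0.231, 95% interval −0.11 to 1.50). Without 7.5 µM replicate 1 that difference was 1.26 and passed (adjusted p = 0.00609), and without 7.5 µM replicate 2 it was −0.17 (adjusted p = 0.597). The size of the DDC difference at the highest dose depended on which 7.5 µM library was kept.

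BNC2 had its highest day 11 mean at 0.7 µM, 21.2 ± 10.5 CPM, and its lowest at 7.5 µM, 14.1 ± 6.22 CPM (SD, n = 2). With the block the difference was −0.57 ± 0.25 (SE) on the log2 scale (adjusted p = 0.168, 95% interval −1.14 to −0.01 before adjustment). SLC18A2 ranged from 0.870 ± 0.413 CPM at 5 µM to 2.29 ± 2.68 CPM at 0.7 µM, the latter mean resting on replicate 2. Its blocked difference at 7.5 µM was −0.49 ± 0.53 (adjusted p = 0.58, 95% interval −1.67 to 0.69). The intervals of SLC6A3 (−1.46 to 2.06) and DRD2 (−1.01 to 1.26) at 7.5 µM also allow changes of 2-fold or more in at least 1 direction.

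**Figure D3:**
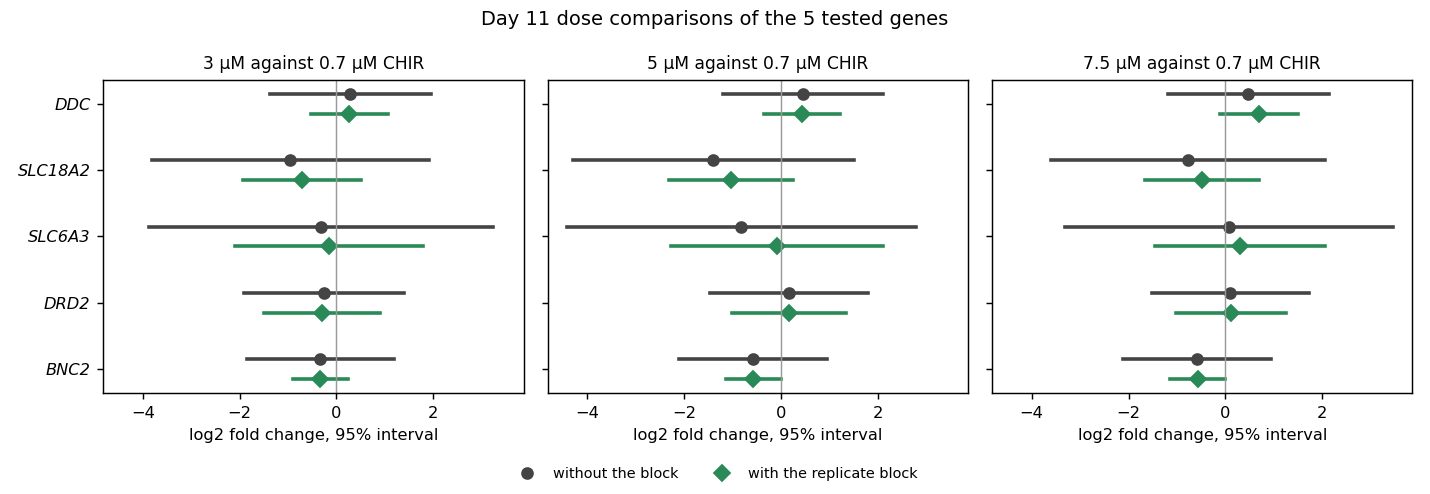
Log2 fold change of 3, 5 and 7.5 µM CHIR against 0.7 µM at day 11 (x, 1 panel each) for the 5 genes tested (y), as estimate and unadjusted 95% interval, without the block (circles) and with it (diamonds). All intervals without the block span 0, and with the block those of BNC2 at 5 and 7.5 µM end just below 0 (−0.003 and −0.01).

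Other genes of the same cultures did pass at 7.5 µM with the block. Of the 15 transcription factors of the dopamine lineage 4 were higher and 0 lower, where 10.5% of all genes tested passed in either direction. The largest 3 by fold were the midbrain factors EN2 and EN1 and the floor plate factor MSX1. EN1 went from 5.83 ± 3.39 to 101 ± 20.8 CPM (SD, n = 2), a difference of 3.95 ± 0.58 (SE) on the log2 scale (adjusted p = 0.00351). Among 12 further markers of dopamine neurons, 9 were tested, with 0 higher and 3 lower. Of the 7 cofactor genes 0 passed. Of the 5 breakdown enzymes tested MAOA rose by 1.59 ± 0.43 (adjusted p = 0.0446), a call lost when 0.7 µM replicate 1, either 5 µM library or either 7.5 µM library was left out (adjusted p 0.0596 to 0.195). NR4A2, a factor needed for TH expression, stood at 0.867 to 1.58 CPM at day 11 and at 1.41 and 1.88 CPM in hPSC, and did not pass against hPSC.

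Markers of other transmitters and cell types were read as levels, since the cultures were bulk. Of the 7 GABAergic genes 5 were tested at 7.5 µM, and with the block 2 were higher (GAD1 and the factor TAL2) and 0 lower. Their median was −0.67 on the log2 scale beside 0.07 over all genes tested, of which 10.5% passed. GAD1, which makes GABA, reached 92.9 ± 4.74 CPM at 7.5 µM from 6.56 ± 6.82 CPM at 0.7 µM (SD, n = 2), 4.24 ± 0.52 (SE) higher on the log2 scale with the block (adjusted p = 0.00153). The vesicular GABA transporter SLC32A1 had 0.303 ± 0.0762 CPM at 0.7 µM and 0.0408 ± 0.0578 CPM at 7.5 µM and did not pass (adjusted p = 0.0778 with the block, and 0.0425 without 7.5 µM replicate 2), and GAD2 stayed at or below 0.0994 CPM at day 11. DBH, which makes noradrenaline from dopamine, stayed between 0 and 0.546 CPM in all 10 libraries. The noradrenergic factor PHOX2A was higher at day 11 than in hPSC, by 4.50 ± 1.05 on the log2 scale (adjusted p = 0.0198), and missed the threshold without either hPSC library (adjusted p = 0.101 and 0.187). It reached 15.2 ± 7.72 CPM at 7.5 µM (SD, n = 2). At 7.5 µM against 0.7 µM 3 of the 6 noradrenergic genes were tested. With the block 1 of them, neither DBH nor PHOX2A, was higher and 0 were lower. Of the 7 serotonergic genes 3 were tested against hPSC, and 0 passed without the block and 2, both higher, with it. Of the 14 general neuronal genes 4 were higher than in hPSC, 3 lower and 7 did not pass, with a median of 0.34 on the log2 scale (6 higher and 4 lower with the block). The neuronal microtubule genes MAP2 and TUBB3 rose by 3.11 ± 0.58 and 2.68 ± 0.42 (adjusted p = 0.00777 and 0.00355), both lost without hPSC replicate 2 (0.104 and 0.065). The splicing factor RBFOX3 (NeuN) fell by 2.28 ± 0.43, and the synaptic vesicle genes SYT1 and SYP by 1.56 ± 0.45 and 1.26 ± 0.29 (adjusted p = 0.00818, 0.0429 and 0.0191). These 3 calls were lost without either hPSC library (adjusted p 0.0604 to 0.247), and that of SYT1 also without any day 11 replicate 1 library or 7.5 µM replicate 2 (0.0525 to 0.0935). STMN2, a marker of growing axons, had 1.21 to 6.92 CPM at day 11 and 2.62 and 2.25 CPM in hPSC and did not pass. The progenitor factor SOX2 had 159 to 442 CPM at day 11 and 266 and 208 CPM in hPSC. Its list of 10 neural progenitor genes had 5 higher than in hPSC and 1 lower without the block. The median was 2.2 on the log2 scale, and with the block 7 were higher and 1 lower. Of the 12 further markers of dopamine neurons 11 were tested against hPSC. Without the block 1 was higher and 5 were lower, where 7.85% and 13.3% of all genes were, and with it 2 were higher and 6 lower, where 54.6% of all genes passed.

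Between the day 11 replicates most of these genes had a fixed direction. SLC18A2, BNC2, DRD2 and KCNJ6 were higher in replicate 2 in 4 of 4 arms, and SLC6A3, SLC10A4 and PITX3 were higher in replicate 1 in 4 of 4. Such a fixed direction was common: of 11994 genes with a mean of at least 5 CPM, 37.8% were higher in replicate 2 in all 4 arms and 35.4% in replicate 1. Apart from BNC2, the genes just named stood below 5 CPM in every day 11 library. Directions of KCNJ6, SLC6A3, SLC10A4 and PITX3 rest on few counts, such as 3 and 6 for SLC10A4 at 5 µM (0.173 and 0.166 CPM). The replicate 2 level of SLC18A2 was 2.01 to 10.5 times that of replicate 1, and that of DRD2 1.44 to 2.52 times. DDC was higher in replicate 1 at 0.7, 3 and 5 µM, up to 2.61-fold, and level at 7.5 µM.

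Marker lists also differed between the replicates. The summed level of 9 mesenchymal and vascular genes was 56.3 to 93.8 CPM in day 11 replicate 1 and 294 to 538 CPM in replicate 2. In hPSC it was 456 to 473 CPM. Most of the replicate 2 sum was COL1A2 (223 to 414 CPM, and 32.1 to 64.7 CPM in replicate 1). Most of the hPSC sum was KDR (244 and 321 CPM). Of the 9, 3 were higher in replicate 2 in all 4 arms and 1 in replicate 1, where 37.8% and 35.4% of the 11994 genes above were. None of these 9 was at 0 throughout day 11. The summed level of the 14 general neuronal genes was 258 to 456 CPM in replicate 1 and 521 to 634 CPM in replicate 2, with 8 of the 14 higher in replicate 2 in all 4 arms. The 10 neural progenitor genes summed to 6911 to 12320 CPM in replicate 1 and 6281 to 7491 CPM in replicate 2, mostly VIM (4701 to 10476 CPM). Of these 10, 5 were higher in replicate 1 in all 4 arms and 2 in replicate 2. The pluripotency list overlapped between the replicates (1239 to 2117 CPM and 1336 to 2057 CPM, against 4156 to 4994 CPM in hPSC), a sum made up mostly of LIN28A at day 11 (1130 to 1994 CPM). Gene by gene, 4 of its 8 members were higher in replicate 2 in all 4 arms (DPPA4, ZFP42, TDGF1 and DNMT3B) and 0 in replicate 1. Of these, named after their values were seen, DPPA4 had 38.4 to 58.4 CPM in replicate 1 and 80.5 to 104 CPM in replicate 2. Their part in the replicate difference of BNC2, SLC18A2 and DRD2 was not tested. Against hPSC, the fall of BNC2 on the log2 scale was 2.37 with only the day 11 replicate 1 libraries and 1.38 with only replicate 2. That of SLC18A2 was 4.36 and 2.37, and DDC was higher by 8.72 and 7.73.

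Genes whose levels ran most like those of the 3 abundant members were sought over the 10 libraries among 11993 genes, by Pearson's r of log2(CPM + 0.5). For DDC they were KCNK10 (r = 0.993), C1orf64 (0.993) and BMP7 (0.991). For SLC18A2 they were ZNF483 (0.985), AUH (0.984) and AASS (0.982), and for BNC2 B3GALT5 (0.991), CHST6 (0.989) and BEND4 (0.988). Within the 8 day 11 libraries alone these r were 0.87 to 0.93 for DDC, 0.94 to 0.96 for SLC18A2 and 0.97 to 0.99 for BNC2. The libraries share their stage and replicate codes, and the values describe these libraries only.

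The day 16 and day 30 tables are not read here as the RNA of the genes they name. Antisense genes took 33.22% to 40.28% of their counts, and protein-coding genes 48.98% to 56.96%, beside 91.35% to 95.34% in the earlier tables. SOX2 had 0 counts in all 4 libraries, and GAPDH stood at 71.0 to 290 CPM, beside 2987 to 9966 CPM at day 11. Day 16 replicate 1 stood apart, with GAPDH at 290 CPM against 71.0 to 76.1 CPM in the other later libraries. Its antisense share was 33.22%, against 38.1% to 40.28%. The day 16 values below and their comparison with day 30 rest in part on that library. Among 1380 coding genes that share at least 200 exon bases with a coding gene on the other strand, the later level correlated at Spearman's rho 0.18 with the gene's own day 11 level and at 0.40 with that of its partner, across genes, which are not independent replicates. Counts are therefore given raw and beside the partner on the opposite strand where there is one, with no test against day 11.

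In those tables the 9 genes ranged from 0 to 566 counts. TH had 14 and 2 counts at day 16 and 29 and 3 at day 30. DDC had 72 and 44, then 57 and 93. SLC18A2 held the most, 523 and 395 at day 16 and 504 and 566 at day 30, and its opposite-strand neighbour PDZD8 had 49 and 8, then 14 and 9.
KCNJ6, which shares 320 exon bases with DSCR4 on its own strand, had 145 and 106 counts at day 16 and 194 and 90 at day 30. BNC2 had 54 and 16, then 8 and 22. DRD2 had 29 and 6, then 26 and 17. PITX3 had 12 and 16, then 14 and 20, while SLC6A3 and SLC10A4 had 0 to 5 counts in each library. The raw counts of day 16 and day 30 overlapped for all 9. Scaled to library size within these 4 libraries, the values of SLC18A2 and DDC did not overlap, and the share of all genes that do so was not counted. SLC18A2 stood at 65.5 and 83.1 CPM, then 98.0 and 104 CPM. DDC stood at 9.01 and 9.25 CPM, then 11.1 and 17.1 CPM. Neither passed in edgeR (adjusted p = 0.628 and 0.62).

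Against these low counts stood genes on the opposite strand of members, singled out here after their values were seen. DDC-AS1, which shares 114 exon bases with DDC, had 202 and 877 counts at day 16 and 1536 and 1028 at day 30, and 0 in every hPSC and day 11 library. AP002840.1, inside the DRD2 locus with no shared exon base, had 575 and 491 counts, then 1940 and 2041, and likewise 0 earlier. It was 2.10 ± 0.46 (SE) higher at day 30 on the log2 scale (adjusted p = 0.0019, edgeR), and 1.89 to 2.45 higher with single libraries left out. DDC-AS1 was not called (1.22 ± 0.56, adjusted p = 0.18), nor with the replicate block (adjusted p = 0.0796). It did pass when the libraries were paired across replicate numbers (1.79 ± 0.51, adjusted p = 0.00763). With single libraries left out its difference ran from 0.43 to 3.33. GENCODE 29 lists no gene on the opposite strand of 5 of the 9 members, TH and PITX3 among them.

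Between day 30 and day 16, 7 of the 9 genes had enough counts in their own rows and 0 passed in edgeR, in DESeq2 or at an unadjusted p under 0.05, where 11% of the 15435 genes tested passed. Differences ran from −0.86 for BNC2 to 1.4 for TH on the log2 scale (adjusted p 0.353 to 0.788). Without day 16 replicate 2, BNC2 passed at −1.19 (adjusted p = 0.0478), and without day 30 replicate 1 the difference of TH was −0.94.

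**Figure D4:**
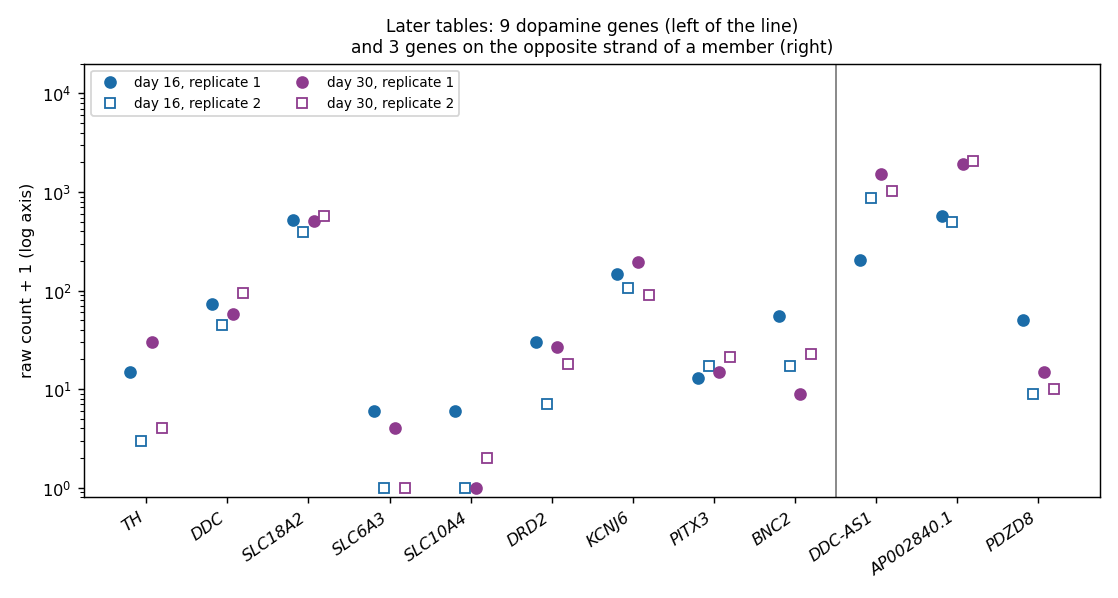
Raw count plus 1 (y, log axis) in each day 16 and day 30 library for the 9 genes (left of the line) and for 3 genes on the opposite strand of DDC, DRD2 and SLC18A2 (right). SLC18A2 holds 395 to 566 counts, TH 2 to 29, and AP002840.1 491 to 2041, highest in both day 30 libraries.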

How the data were processed

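The deposited values are raw counts of reads per gene, whole numbers deposited by the authors. The genome hg19 and the tools HTSeq 0.5.3, featureCounts 1.4.2, STAR 2.4.2a and DESeq2 1.12.4 are listed, with no role, in the submitters' processing notes. Which counter made which table, the library kit and the strand setting are not stated there. Each hPSC or day 11 table also has 5 summary entries, which took 37.41% to 44.33% of its counts and were dropped before scaling. Members were matched by symbol in those tables and by Ensembl ID in the later ones. GENCODE 29 gave gene type, strand and exon length by ID only.

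Tests were run in R 4.3.3 with limma 3.58.1 and edgeR 4.0.16 after TMM scaling and filterByExpr, by robust quasi-likelihood fits over all genes with Benjamini-Hochberg adjustment at 0.05, and checked on simulated counts. The comparison with hPSC used 10 libraries, the dose comparisons the 8 at day 11, and day 30 against day 16 its own 4. Standard errors and 95% intervals are the fit's and are not adjusted. Same-numbered day 11 libraries deviated together (r 0.64 to 0.86 between every pair of arms, −0.11 to −0.18 with hPSC, −0.22 between day 16 and day 30), so the block pairs them, a pairing read from the data and from codes in the labels. The labels also give same-numbered day 16 and day 30 libraries a shared code, with BOOST in replicate 1 and BUMP in replicate 2. The main test of day 30 against day 16 leaves that pairing out, the replicate block uses it and the crossed pairing goes against it. Alternatives were DESeq2 1.42.0, its size factors, no filter on low counts, the block, single libraries left out and, chosen after seeing the data, a crossed pairing and each day 11 replicate alone. Python 3.11.15 and scipy 1.17.1 gave exact intervals for ratios of counts.

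The 9 members, the 15 other gene lists and the tests were chosen with earlier results of these data known. All members are named in every comparison. Of each other list the rule takes up to 3 genes per direction of largest fold among those that passed (at day 11 doses also with the block) with a group mean of at least 1 CPM, and the text gives some of these. It also takes 12 set genes and, for members of at least 1 CPM, the 3 most alike among genes of at least 5 CPM. At least 1 gene among those it takes is not reported here.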

Additional observations from a re-analysis of the deposited data

How the results depend on the processing

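Against hPSC, 4 dopamine genes were called without the block and 6 with the replicate block, 5 with DESeq2, 5 with only day 11 replicate 1, 6 with only replicate 2, and 1 to 4 with single libraries left out. DDC passed in each of these fits. At 7.5 µM with the block the count went from 0 to between 0 and 1 on leaving out libraries, and between day 30 and day 16 from 0 to between 0 and 1. The counts of 0 at 3 and 5 µM and in the slope held in every alternative run, the paired fits included, and in the paired fit of day 30 against day 16, where the crossed pairing also called 0. Over all genes, the day 30 comparison called 1702 genes, 1067 with the replicate block, 1749 with the crossed pairing and 39 to 8078 without single libraries, and the hPSC comparison 4152, or 6258 with DESeq2, 10732 with the block and 1114 to 4927 without single libraries. With the block, 7.5 µM called 1967 (754 to 5613), 5 µM 211 (50 to 845), 3 µM 4 (0 to 154) and the slope 222 (2 to 251). The slope without the block called 25 (0 to 29).

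Differences at 7.5 µM that turned sign when single libraries were left out, on the log2 scale without the block, were DDC (−0.015 to 1.23), BNC2 (−1.22 to 0.031), SLC18A2 (−2.03 to 1.75), SLC6A3 (−1.47 to 3.04) and DRD2 (−0.36 to 0.45). With the block they were DDC (−0.17 to 1.26), SLC18A2 (−1.08 to 0.70) and SLC6A3 (−0.34 to 1.83). Between day 30 and day 16 they were TH (−0.94 to 2.82), KCNJ6 (−0.24 to 0.87) and PITX3 (−0.049 to 1.15). None of these was called in the full fit, and the cause was not tested. Of the values against hPSC, 280 of the alternatives kept direction and call, 31 lost the call and 9 gained it. Where an arm kept 1 library, that library was taken to vary like the others. The depth left TH, KCNJ6 and PITX3 untested before day 16.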
